A study of Mus musculus with 18 samples.

Results

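The uninjected, distant melanoma was compared between mice whose other tumour had received IFN-alpha-pMC and mice whose other tumour had received pMC without that mark. The comparison used the 3 libraries titled IFN-alpha-pMC left and the 3 titled pMC left, which are 6 of the 18 libraries of the series, and every gene in their count tables. In all groups, C57BL/6 mice carried an MO4 tumour in each hindlimb. MO4 is a B16F10 melanoma line that makes ovalbumin, and 100000 cells were placed under the skin of each side on day 0. Left IFN-alpha-pMC tumours came from mice given 1000000 IFN-alpha-pMC beside the right tumour on each of days 5, 6 and 7. Left pMC tumours came from mice given the same number of pMC on the same days, so both groups had received cells derived from induced pluripotent stem cells, and they differed in the IFN-alpha mark. Left control tumours, 3 libraries from mice without injected cells, are given last where they help to read a level. RNA was taken on day 11 in every group. The labels give no age, sex, clone number or vector, and they do not say that the libraries of a group came from separate mice. The p-values therefore describe the scatter of libraries within groups, possibly a technical one. That scatter was estimated over all 18 libraries and 6 groups of the series, not from the 6 compared libraries alone.

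Type I interferons, the family that includes IFN-alpha, bind a receptor found on nearly all cells and switch on antiviral genes. Interferon-gamma is made mainly by T cells and NK cells. It raises guanylate-binding proteins, immunity-related GTPases, antigen presentation genes and the chemokines that draw T cells, and many genes answer to both kinds of interferon. A tumour left uninjected on the opposite side shows whether a treatment given at one site is followed by changes at another.

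The 6 libraries held 15577507, 20670004 and 18385575 counts in left IFN-alpha-pMC 1, 2 and 3, against 22858892, 15707029 and 22918778 in left pMC 1, 2 and 3. Melanocyte genes were abundant in all of them, as the melanoma label says. The 20 melanocyte genes summed to 44000 to 48900 CPM in left IFN-alpha-pMC and to 42500 to 48400 CPM in left pMC, where CPM are counts per 1000000 of the library total after scaling by trimmed means. Left IFN-alpha-pMC 1 stood apart from its group, with a mean Spearman correlation of 0.968 with the other libraries of the group, against 0.98 and 0.983 for the other two, while left pMC libraries were at 0.994 to 0.995. Other properties also separated the groups. A skeletal muscle score, the mean log2 level of 28 muscle genes relative to all 18 libraries, was 2.1, 1.84 and 1.10 in left IFN-alpha-pMC and -3.61, -0.83 and -1.30 in left pMC, with 0.68, -3.54 and -2.09 in left controls. Across genes, the deviation of a library from the mean of all libraries had a rank correlation with GC content of -0.23, -0.42 and -0.27 in left IFN-alpha-pMC and of 0.07, 0.43 and 0.36 in left pMC. Read pairs in no annotated feature were 6.12, 4.15 and 4.37% in left IFN-alpha-pMC and 8.33, 8.37 and 7.09% in left pMC. Calls lost when the muscle score was added to the model, or after a correction by transcript length and GC content, are given with each group of genes, and the part of the share in no feature was not tested.

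**Figure D1:**
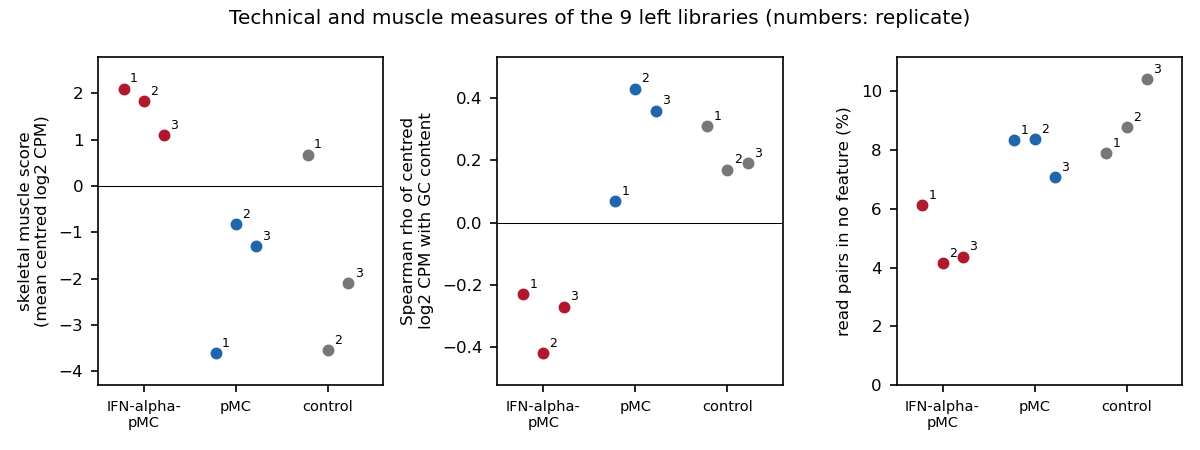
Each point is 1 library, numbered by its replicate, of left IFN-alpha-pMC, left pMC or left control. The vertical axes are the muscle score (mean centred log2 CPM), the rank correlation of centred log2 CPM with GC content, and the percent of read pairs in no feature. Muscle scores of left IFN-alpha-pMC were 1.10 to 2.1, all above the left pMC range of -3.61 to -0.83, and 4.15 to 6.12% of read pairs lay in no feature, below the left pMC range of 7.09 to 8.37%.

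Counts were compared with edgeR's quasi-likelihood test, and a gene was called changed at a Benjamini-Hochberg adjusted p under 0.05 over all 14849 genes tested. Relative to left pMC, 403 genes rose in left IFN-alpha-pMC tumours (2.71% of genes tested) and 169 fell (1.14%), so 572 were called in all (3.85%). The median log2 fold change of all genes was 0.07, and 55% of all genes had a positive one. List counts below are to be read against these shares, and a single call in a short list does not set that list apart. The genes that rose had a median GC content of 46.7% and those that fell 58.3%, against 50.6% for all genes tested. How many genes were called depended on single libraries. Without left IFN-alpha-pMC 2 the count was 33, without left pMC 1, 2 or 3 it was 46, 38 or 34, without left IFN-alpha-pMC 3 it was 233, and without left IFN-alpha-pMC 1 it was 414. Only 265 of those 414 were among the 572, and of the 109 genes called lower in that fit only 42 were among the 169. Fitted on the 6 libraries alone, the test called 950 genes higher and 1588 lower, a different balance of directions, and given the muscle score as a covariate it called 82 higher and 4 lower. That score did not overlap between the 2 left groups, so this fit cannot separate it well from the contrast. The 10 largest falls were lost at a median log2 fold change of -1.89, against -1.83 without it, with a median SE of 0.53 against 0.41. For 16 muscle genes the median went from 5.16 to 1.57.

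A set of 25 genes was called in each of the 6 fits that left out 1 library, and all 25 rose. Several were outside the naming rule given with the methods and were picked here after their values were seen. Apol6, a member of the apolipoprotein L family, had 13.9, 17.2 and 14.4 CPM in left IFN-alpha-pMC, against 3.82, 2.51 and 3.14 CPM in left pMC, a log2 fold change of 2.26 ± 0.24 (SE, adjusted p = 5.17e-04). Ch25h, whose product makes an oxysterol with antiviral activity, had 4.97, 5.75 and 3.26 CPM in left IFN-alpha-pMC and 0.945, 0.815 and 0.958 CPM in left pMC (log2 fold change 2.35 ± 0.26, adjusted p = 5.17e-04). For both genes each left IFN-alpha-pMC library lay above each left pMC library, and left controls lay with left pMC, at 2.54 to 3.69 CPM for Apol6 and 0.939 to 1.02 CPM for Ch25h. The predicted genes Gm4841 and Gm12185 also rose. Gm4841 averaged 238 ± 73.8 CPM in left IFN-alpha-pMC and 41.2 ± 2.03 CPM in left pMC (SD, n = 3), and Gm12185 averaged 115 ± 33.5 CPM in left IFN-alpha-pMC and 30.6 ± 3.34 CPM in left pMC. Plau, the urokinase that activates plasminogen, rose by 1.47 ± 0.18 on the log2 scale, and Cd24a, a glycoprotein of the cell surface, by 1.90 ± 0.25.

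The rest of the 25 fall into a few kinds. Gbp2, Gbp3, Gbp11 and Iigp1 encode guanylate-binding proteins and an immunity-related GTPase. Zbp1, a sensor of left-handed nucleic acids, Isg20, an exonuclease, and Ly6a, the stem cell antigen Sca-1, are interferon-induced in the mouse. Cxcl9, Cxcl10 and Ccl11 are chemokines for T cells and eosinophils. Ly6c2 marks inflammatory monocytes, and Gzmb encodes the killer protease granzyme B. Smyd1 and Yipf7 belong with skeletal muscle. Clic5, Ggta1, Ms4a4d, Treml2 and a gene without a symbol, ENSMUSG00000054588, make up the others. All 25 were called after correction for length and GC content. With the muscle score in the model 19 of 25 were called, and Ccl11, Yipf7, Ms4a4d, Gzmb, Treml2 and Smyd1 had adjusted p of 0.0688, 0.114, 0.0769, 0.0761, 0.0688 and 0.0677.

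**Figure D2:**
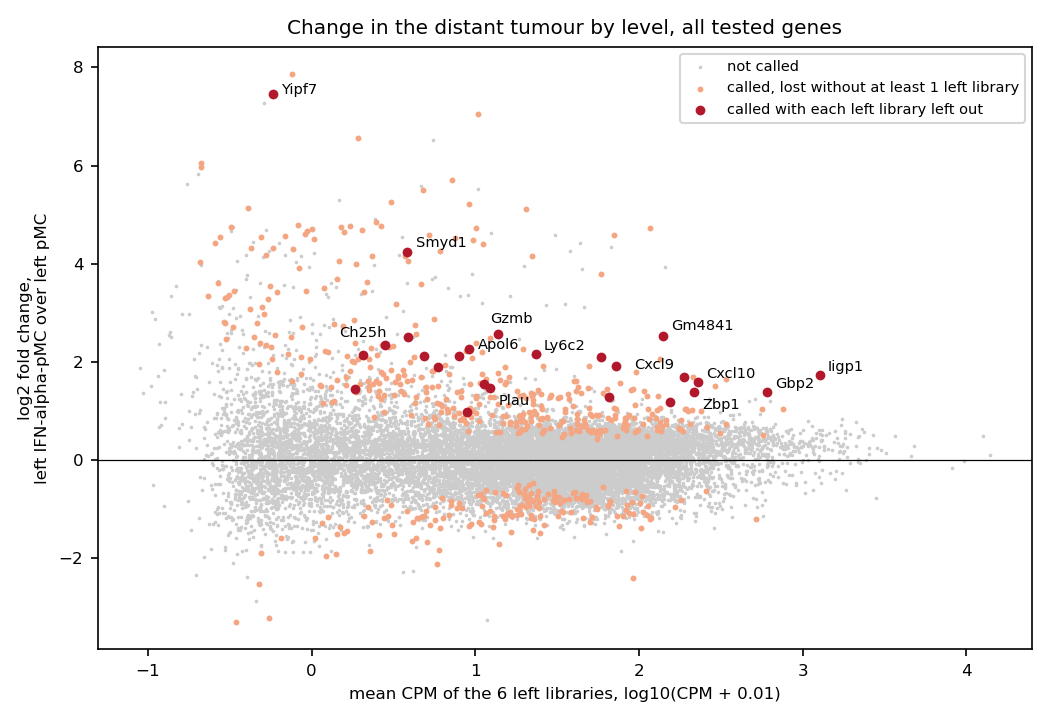
Each point is 1 of 14849 genes, with the mean CPM of the 6 libraries on the horizontal axis (log10 scale, 0.01 added) and the log2 fold change of left IFN-alpha-pMC over left pMC on the vertical axis. Grey points were not called, orange points were called but lost without at least 1 library, and the 25 red points, all above 0, were called with each library left out.

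Promoters were read for the 25 genes because an interferon-stimulated response element, a DNA site of type I interferon target genes, can be searched for by its letters. The motif GAAA, any 2 bases, GAAA, searched on both strands in the 300 bases from 250 before to 50 after each start site in RefSeq's mouse annotation (GRCm38.p6), was held by 1131 of 32851 promoters (3.44%) and by 426 of the 10627 tested genes that had a promoter entry (4.01%). It was held by 46 of 297 genes that rose and had an entry (15.5%) and by 3 of 125 that fell (2.4%). In the interferon lists described below, 16 of 30 type I genes with an entry held it (53.3%) and 10 of 15 interferon-gamma genes did (66.7%). The motif was thus not particular to the type I list. Among the 25 genes, 13 had an entry and 4 of these held it (30.8%). These 4 are shown because they join the most stable changes with that motif. They give the 250 bases before the start of Gm12185 (chr11:48927183-48927432, minus strand), Cxcl10 (chr5:92348890-92349139, minus strand), Gbp3 (chr3:142559794-142560043, plus strand) and Gbp2 (chr3:142620413-142620662, plus strand), 5′ to 3′ on the gene's strand, with the motif in capitals. In Gbp3 and Gbp2 it lies on the opposite strand, and the Gbp3 promoter shown holds 2 overlapping matches. Gbp3 has 2 promoter entries, and only the 1 shown held the motif. A gene was counted as holding it if any of its entries did.
Gm12185: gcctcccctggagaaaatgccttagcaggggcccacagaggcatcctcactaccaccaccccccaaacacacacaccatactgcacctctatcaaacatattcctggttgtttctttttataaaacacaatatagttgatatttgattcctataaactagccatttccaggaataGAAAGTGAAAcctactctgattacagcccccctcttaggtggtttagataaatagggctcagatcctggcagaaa
Cxcl10: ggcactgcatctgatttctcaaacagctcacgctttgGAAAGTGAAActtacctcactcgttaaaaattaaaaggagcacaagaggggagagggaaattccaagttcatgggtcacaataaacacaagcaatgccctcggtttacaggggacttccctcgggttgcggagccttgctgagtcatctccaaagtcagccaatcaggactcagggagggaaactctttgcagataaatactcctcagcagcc
Gbp3: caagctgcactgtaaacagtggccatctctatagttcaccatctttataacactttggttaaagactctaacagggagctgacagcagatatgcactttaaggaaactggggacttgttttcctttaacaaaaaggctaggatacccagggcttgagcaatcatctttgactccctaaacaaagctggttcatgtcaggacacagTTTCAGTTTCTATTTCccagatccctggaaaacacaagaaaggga
Gbp2: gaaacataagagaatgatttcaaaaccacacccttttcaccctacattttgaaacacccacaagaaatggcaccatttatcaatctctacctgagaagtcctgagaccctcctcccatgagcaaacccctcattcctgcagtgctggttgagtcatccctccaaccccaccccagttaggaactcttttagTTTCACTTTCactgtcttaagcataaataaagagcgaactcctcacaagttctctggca
The shorter gamma-activated motif TTCNNNGAA, which may overlap the first, was held by 36 of 297 genes that rose (12.1%), 9 of 125 that fell (7.2%) and 887 of 10627 tested (8.35%). Among the 25 genes, 3 of the 13 with an entry held it (23.1%). In the lists, 7 of 30 type I genes (23.3%) and 7 of 15 interferon-gamma genes (46.7%) held it. A match describes these letters only. No binding was measured.

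The type I interferon response was higher in the distant tumour of IFN-alpha-pMC mice. Of 40 genes of that response, 15 rose (37.5%, against 2.71% of all genes tested) and none fell. A positive log2 fold change was seen in 37, against 55% of all genes, with a median of 0.65 against 0.07 for all genes. Zbp1 had 310, 338 and 294 CPM in left IFN-alpha-pMC, against 120, 123 and 119 CPM in left pMC (log2 fold change 1.38 ± 0.20, adjusted p = 0.00346). Isg20 had 17.1, 18.1 and 15.2 CPM in left IFN-alpha-pMC and 5.58, 5.77 and 5.84 CPM in left pMC (1.55 ± 0.24, adjusted p = 0.00435). Left pMC libraries were close to each other for both genes and no left IFN-alpha-pMC library came near them. Left controls were at 97.7 to 129 CPM for Zbp1 and 4.23 to 6.04 CPM for Isg20, within or near the left pMC values. Ifi44, an interferon-induced gene of the cytoplasm, had 47.4, 76.9 and 62.5 CPM in left IFN-alpha-pMC and 23.4, 15.9 and 21.3 CPM in left pMC (1.62 ± 0.28). Mx1, a GTPase that blocks influenza virus in strains with an intact copy, had 15.8, 14.9 and 12.7 CPM in left IFN-alpha-pMC and 6.05, 7.84 and 5.62 CPM in left pMC (1.15 ± 0.21). In both, the groups did not overlap.

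Ifit1 and Ifit3, whose proteins bind viral RNA or partner those that do, rose by 1.06 ± 0.19 and 1.04 ± 0.19 on the log2 scale. Rsad2, the antiviral enzyme viperin, rose by 0.85 ± 0.22, and Irf7, the factor that amplifies interferon production, by 0.80 ± 0.18. Ly6a, which is not on the list, had 84.8, 91 and 102 CPM in left IFN-alpha-pMC and 38.6, 36.8 and 38.2 CPM in left pMC (1.29 ± 0.20). Isg15, the ubiquitin-like modifier, had 206, 118 and 101 CPM in left IFN-alpha-pMC and 58.3, 67.5 and 66.4 CPM in left pMC, and it missed the threshold with an adjusted p of 0.0567. Ifnar1, a chain of the type I receptor, was at 76, 122 and 121 CPM in left IFN-alpha-pMC and 112, 95.4 and 108 CPM in left pMC (0.02 ± 0.17). Of the 9 called genes named here and above, Zbp1, Isg20 and Ly6a were called with any 1 library left out. Ifi44, Mx1, Ifit1, Ifit3, Irf7 and Rsad2 were lost in at least 1 such fit, with highest adjusted p of 0.062 to 0.179: 6 without left IFN-alpha-pMC 2, 2 without left IFN-alpha-pMC 3, and 3, 5 and 6 without left pMC 1, 2 and 3. Over these fits the list's count ran from 2 to 16. With the muscle score as a covariate 13 of 40 rose, and Irf7 was not called (1.01, adjusted p = 0.0682, against 0.80 without it). After the length and GC correction 12 rose and Rsad2 was not called (adjusted p = 0.0505).

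**Figure D3:**
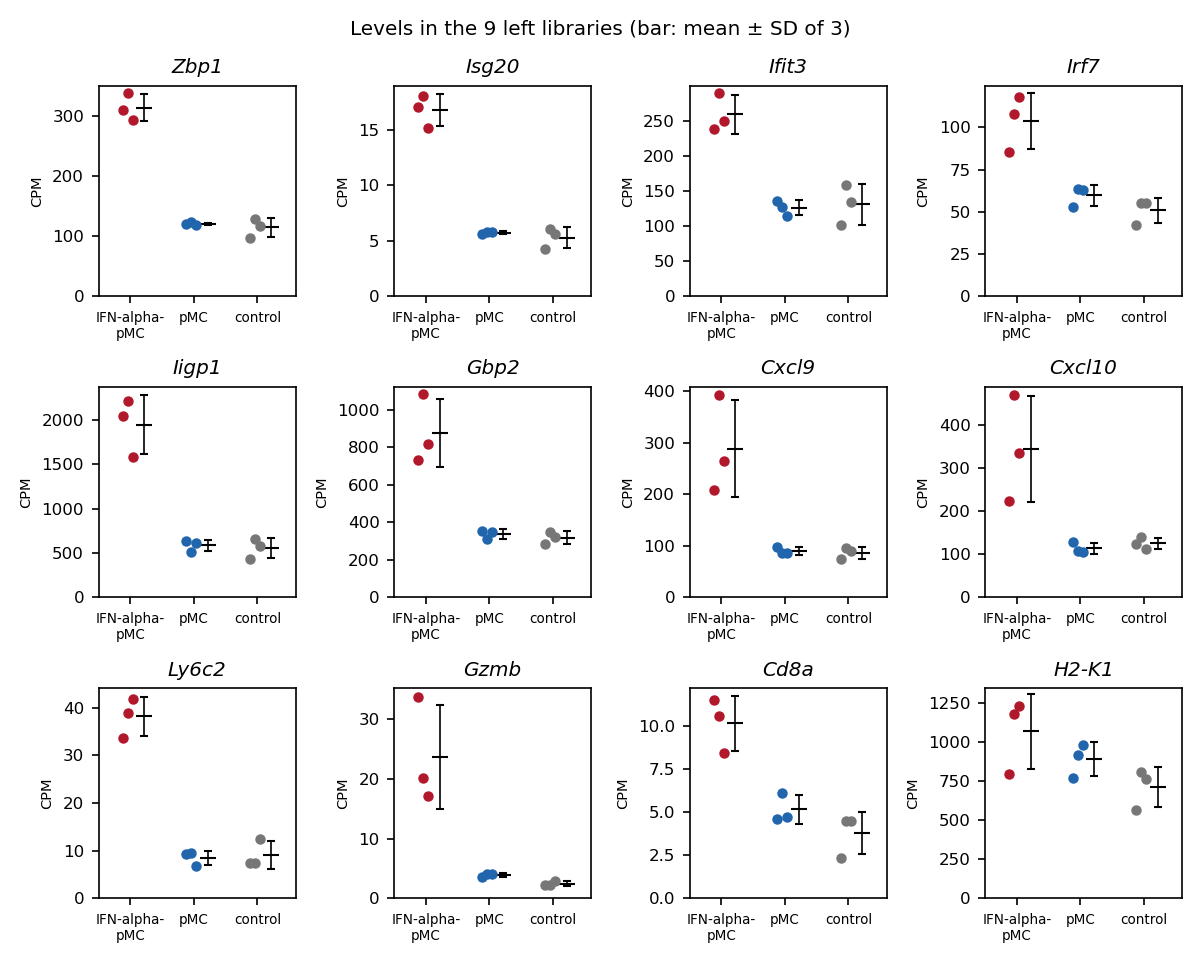
Each point is 1 library of left IFN-alpha-pMC, left pMC or left control, the bar beside them is the mean ± SD of 3 libraries, and the vertical axis is CPM and starts at 0. Zbp1 lies at 294 to 338 CPM in left IFN-alpha-pMC and at 119 to 123 CPM in left pMC, and left controls lie near left pMC in most panels.

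Genes of the interferon-gamma response were higher too. Of 22 tested, 14 rose (63.6%, against 2.71% of all genes tested) and none fell. All 22 had a positive log2 fold change, against 55% of all genes, and their median was 1.24. The summed level of the list was 8170 to 10400 CPM in left IFN-alpha-pMC, 3910 to 4210 CPM in left pMC and 3020 to 4250 CPM in left controls. Iigp1, a GTPase that attacks the vacuoles of intracellular parasites, had 2050, 2220 and 1580 CPM in left IFN-alpha-pMC, against 632, 517 and 614 CPM in left pMC (log2 fold change 1.73 ± 0.27, adjusted p = 0.00517). Gbp2 had 730, 1080 and 816 CPM in left IFN-alpha-pMC and 353, 308 and 349 CPM in left pMC (1.38 ± 0.22, adjusted p = 0.0053). Gbp3 had 184, 252 and 213 CPM in left IFN-alpha-pMC and 105, 90.6 and 88.6 CPM in left pMC (1.19 ± 0.18, adjusted p = 0.00435). The groups did not overlap in any of these genes, whose promoters or family are described above, and the highest left IFN-alpha-pMC library for each was number 2.

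Irf1, the factor that carries much of the interferon-gamma response, had 224, 315 and 228 CPM in left IFN-alpha-pMC and 128, 129 and 116 CPM in left pMC (1.04 ± 0.18, adjusted p = 0.00898). Cd274, which encodes the checkpoint ligand PD-L1, had 130, 180 and 164 CPM in left IFN-alpha-pMC and 66.2, 65.6 and 61.9 CPM in left pMC (1.30 ± 0.27, adjusted p = 0.0206). Nos2, the inducible nitric oxide synthase of activated macrophages, was low, at 1.53, 3 and 2.61 CPM in left IFN-alpha-pMC and 0.472, 0.941 and 1.09 CPM in left pMC (1.53 ± 0.37, adjusted p = 0.0342). Each left IFN-alpha-pMC library again exceeded each left pMC library. Ifng itself had 3.06, 3.78 and 2.39 CPM in left IFN-alpha-pMC and 0.558, 0.627 and 0.566 CPM in left pMC (2.39 ± 0.41, adjusted p = 0.00937), with 0.557 to 0.805 CPM in left controls. It was the only one of 11 interferon genes with an ID in the files that had enough counts to be tested, so no IFN-alpha gene was tested. Irf8 and Irf5, factors of myeloid cells, rose by 1.04 ± 0.21 and 0.75 ± 0.18. Ciita, the master regulator of class II genes, had 16.7, 26.1 and 24.9 CPM in left IFN-alpha-pMC and 10.9, 14 and 11.5 CPM in left pMC but did not pass (adjusted p = 0.0587). Of the 9 called genes with values here, Iigp1, Gbp2 and Gbp3 held with any 1 library left out. Irf1, Ifng, Cd274, Nos2, Irf8 and Irf5 did not, with highest adjusted p of 0.0577 to 0.14: 6 of them were lost without left IFN-alpha-pMC 2, 2 without left IFN-alpha-pMC 3, and 5, 5 and 6 without left pMC 1, 2 and 3. The list's count ran from 4 to 16 over these fits and was 13 with the muscle score, where Nos2, Irf8 and Irf5 were not called at log2 fold changes of 1.14, 1.16 and 0.74. After the length and GC correction the list's count was 16.

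Of 19 genes of MHC class I presentation 3 rose (15.8%), and of 11 of class II presentation 2 rose (18.2%), against 2.71% of all genes tested, and none fell in either list. The medians were 0.62 and 0.75, and 18 of 19 and 10 of 11 log2 fold changes were positive. DESeq2 called 8 and 4 higher. Tapbpl, a peptide editor of class I molecules, had 98.1, 102 and 92.5 CPM in left IFN-alpha-pMC and 41.6, 51 and 49.4 CPM in left pMC (log2 fold change 1.05 ± 0.18, adjusted p = 0.00937). H2-DMa, a chain of the class II peptide editor, had 61, 68.8 and 62.3 CPM in left IFN-alpha-pMC and 19.6, 26.3 and 28.5 CPM in left pMC (1.37 ± 0.24, adjusted p = 0.00964). The groups were far apart in both. The nonclassical class I genes H2-Q7 and H2-T23 rose by 0.95 ± 0.22 and 1.05 ± 0.28, and Ctss, the protease that trims the invariant chain, by 1.00 ± 0.24. H2-Q7 has near-identical relatives whose reads may be shared or dropped, so its level is uncertain.

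The main class I genes did not pass. B2m, the light chain, had 3650, 6020 and 6150 CPM in left IFN-alpha-pMC and 4100, 4240 and 4690 CPM in left pMC (0.28 ± 0.23, adjusted p = 0.41). H2-K1 had 793, 1180 and 1230 CPM in left IFN-alpha-pMC and 768, 915 and 980 CPM in left pMC (0.27 ± 0.23, adjusted p = 0.421). In both genes left IFN-alpha-pMC 1 lay among or below the left pMC libraries and the other 2 lay above them. Cd74, the invariant chain, and H2-Aa, a class II chain, had log2 fold changes of 0.62 ± 0.27 and 0.93 ± 0.34 with adjusted p of 0.142 and 0.0959. All 5 calls in the 2 lists were lost when single libraries were left out, with highest adjusted p of 0.0706 to 0.147: 5 were lost without left IFN-alpha-pMC 2 or left pMC 1, 4 without left pMC 2 or 3, 3 without left IFN-alpha-pMC 3 and 2 without left IFN-alpha-pMC 1. Tapbpl and H2-DMa were called with the muscle score, and the 3 calls lost had larger log2 fold changes than without it. H2-T23 and Ctss were lost by the length and GC correction (adjusted p of 0.0535 and 0.0818).

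Chemokines that draw T cells and NK cells were higher. Of 9 genes of that list 7 rose (77.8%, against 2.71% of all genes tested) and none fell. The median log2 fold change was 1.49, with summed levels of 586 to 992 CPM in left IFN-alpha-pMC against 245 to 275 CPM in left pMC. Cxcl9 had 208, 392 and 264 CPM in left IFN-alpha-pMC, against 97.8, 85.5 and 85.3 CPM in left pMC (1.69 ± 0.24, adjusted p = 0.00272). Cxcl10, whose promoter is shown above, had 225, 471 and 337 CPM in left IFN-alpha-pMC and 129, 108 and 105 CPM in left pMC (1.59 ± 0.24, adjusted p = 0.00435). Both encode ligands of CXCR3, and for both the spread among left IFN-alpha-pMC libraries was wide without reaching left pMC. Cxcr3 itself had 2.98, 4.72 and 4.13 CPM in left IFN-alpha-pMC and 3.99, 4.52 and 4.31 CPM in left pMC (-0.11 ± 0.27, adjusted p = 0.801). Ccl4, a chemokine of activated leukocytes, rose by 1.75 ± 0.29, with 9.67 to 11.6 CPM in left IFN-alpha-pMC and 2.19 to 3.83 CPM in left pMC. Ccl5, a chemokine for T cells and monocytes, rose by 1.05 ± 0.19, with 41.5 to 53 CPM in left IFN-alpha-pMC and 20.9 to 26.7 CPM in left pMC.

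The monocyte chemokines Ccl2 and Ccl7 rose as well, the 2 calls among 6 tested genes that draw monocytes and neutrophils (33.3%, against 2.71% of all genes tested). Ccl2 had 45.3, 31.7 and 33.8 CPM in left IFN-alpha-pMC and 9.32, 7.02 and 8.76 CPM in left pMC (2.14 ± 0.39, adjusted p = 0.0121), and Ccl7 had 51.3, 33.6 and 34 CPM in left IFN-alpha-pMC and 9.27, 9.72 and 7.32 CPM in left pMC (2.17 ± 0.39, adjusted p = 0.00997). Ccl11, a chemokine for eosinophils, was low, at 2.68, 3.93 and 3.48 CPM in left IFN-alpha-pMC and 0.429, 0.815 and 1.05 CPM in left pMC (2.14 ± 0.30, adjusted p = 0.00272). None of the 5 eosinophil genes had enough counts to be tested. Among 13 inflammatory cytokine and inflammasome genes 6 rose (46.2%, against 2.71% of all genes tested, median 1.21). There were 0 to 4 such calls in the fits without 1 library and 1 with the muscle score. Tnf had 2.45, 3.59 and 2.39 CPM in left IFN-alpha-pMC and 0.386, 0.69 and 1 CPM in left pMC (2.02 ± 0.36, adjusted p = 0.00976). Il1rn, the secreted blocker of interleukin-1, rose by 2.0 ± 0.39, and Casp1, the inflammasome protease, by 1.55 ± 0.32. Of 11 sensors of nucleic acids and microbes 2 rose (18.2%), Tlr13 and Tlr1, by 0.91 ± 0.19 and 0.97 ± 0.24. None of 10 genes of NF-kappa-B feedback was called by edgeR, with a median of 0.23, while 5 had an unadjusted p under 0.05 and DESeq2 called 2 higher.

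Of these 12 called genes, Cxcl9, Cxcl10 and Ccl11 held in every fit without 1 library. Ccl4, Ccl5, Ccl7, Ccl2, Tnf, Il1rn, Casp1, Tlr13 and Tlr1 were lost in at least 1, with highest adjusted p of 0.0544 to 0.141: 6 without left IFN-alpha-pMC 2, 3 without left IFN-alpha-pMC 3, and 9, 7 and 7 without left pMC 1, 2 and 3. The T cell and NK chemokine count ran from 2 to 5. With the muscle score Cxcl9, Cxcl10, Ccl4 and Ccl5 were called, and the 8 calls lost had a median log2 fold change of 1.93, against 2.01 without it. Tlr13 and Tlr1 were lost by the length and GC correction (adjusted p of 0.0972 and 0.0642).

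Lymphocyte genes were higher in the distant tumour of IFN-alpha-pMC mice in some cases, at low levels. In bulk RNA a difference in the number of cells of a type and a difference in RNA per cell cannot be told apart. Of 27 T cell genes 4 rose (14.8%, against 2.71% of all genes tested), with a median log2 fold change of 0.94. In 16 of the 27 the left IFN-alpha-pMC libraries were all above the left pMC libraries, against 21.3% of all genes. Of 14 cytotoxic effector genes tested 7 rose (50%, median 1.39), with summed levels of 181 to 234 CPM in left IFN-alpha-pMC and 66.3 to 81 CPM in left pMC. Gzmb had 33.7, 20.2 and 17.2 CPM in left IFN-alpha-pMC, against 3.61, 4.14 and 4.14 CPM in left pMC and 2.26, 2.21 and 2.9 CPM in left controls (2.58 ± 0.41, adjusted p = 0.0053). Gzma, granzyme A, had 22.3, 13.2 and 8.09 CPM in left IFN-alpha-pMC and 2.4, 3.51 and 3.44 CPM in left pMC (2.22 ± 0.46, adjusted p = 0.0201). Left IFN-alpha-pMC 1 was highest for both granzymes, and each left IFN-alpha-pMC library exceeded each left pMC library. Granzyme genes resemble each other, so some reads may have been assigned to none or to a relative. Gzmc, another granzyme, was at 0.295 to 0.765 CPM in left IFN-alpha-pMC and near the floor of detection in left pMC, at 0.0436 to 0.125 CPM (2.47 ± 0.62, adjusted p = 0.0398). Tnfsf10, the death ligand TRAIL, had 32, 38.3 and 27.1 CPM in left IFN-alpha-pMC and 12.9, 12.4 and 13 CPM in left pMC (1.35 ± 0.27). Prf1, the pore former perforin, had 3.14, 5.26 and 4.29 CPM in left IFN-alpha-pMC and 1.76, 2.07 and 1.83 CPM in left pMC and did not pass (adjusted p = 0.059).

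Among T cell genes, Cd3g, a chain of the receptor complex, had 9.49, 9.29 and 6.46 CPM in left IFN-alpha-pMC and 3.13, 3.83 and 4.44 CPM in left pMC (1.14 ± 0.28, adjusted p = 0.0366). Lat, the adaptor below that receptor, rose by 1.25 ± 0.30, and Cd2, an adhesion receptor, by 1.5 ± 0.38. The lineage markers themselves did not pass. Cd8a had 11.5, 10.6 and 8.42 CPM in left IFN-alpha-pMC and 4.59, 6.15 and 4.75 CPM in left pMC (0.98 ± 0.37, adjusted p = 0.103), with no overlap. Cd4 had 2.37, 4.86 and 3.42 CPM in left IFN-alpha-pMC and 3.78, 3.95 and 3.22 CPM in left pMC (-0.02 ± 0.36, adjusted p = 0.967), so its groups overlapped. Foxp3, the factor of regulatory T cells, was at 0.815 to 1.15 CPM in left IFN-alpha-pMC and 0.697 to 1.57 CPM in left pMC (adjusted p = 0.94). Of 8 regulatory T cell genes only Il10, an anti-inflammatory cytokine, rose (2.56 ± 0.68).

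Of 16 NK cell genes 2 rose (12.5%, against 2.71% of all genes tested), with a median of 1.41. They were Klrk1, the activating receptor NKG2D (11.9 to 20.1 CPM in left IFN-alpha-pMC and 4.42 to 6.65 CPM in left pMC), and Fcer1g, a signalling chain that myeloid cells also use (121 to 148 CPM in left IFN-alpha-pMC and 51.2 to 65.5 CPM in left pMC). The NK marker Ncr1 had 1.53, 2.11 and 0.923 CPM in left IFN-alpha-pMC and 0.344, 0.627 and 0.741 CPM in left pMC (adjusted p = 0.0548). Of 11 checkpoint genes only Pdcd1lg2, the ligand PD-L2, rose (2.17 ± 0.54). Pdcd1, Lag3, Havcr2 and Ctla4, inhibitory receptors of T cells, had adjusted p of 0.27, 0.398, 0.222 and 0.193. None of 9 B and plasma cell genes was called by edgeR or DESeq2, with 1 at an unadjusted p under 0.05. Of the 11 called lymphocyte, NK and checkpoint genes with values here, Gzmb held with any 1 library left out. The other 10 had highest adjusted p of 0.0929 to 0.144: 10 were lost without left IFN-alpha-pMC 2 and without each of left pMC 1, 2 and 3, 6 without left IFN-alpha-pMC 1 and 5 without left IFN-alpha-pMC 3. The T cell count ran from 0 to 2 and the cytotoxic count from 1 to 5. With the muscle score as a covariate Tnfsf10 was called and the other 10 were not, at a median log2 fold change of 1.90, against 1.87 without it, and a median SE of 0.59, against 0.40. Cd3g was at 1.49 and Gzmb at 2.53 in that fit. The length and GC correction lost Cd3g, Klrk1, Pdcd1lg2 and Il10 (adjusted p of 0.0547 to 0.0779).

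Monocyte genes also rose: 6 of 13 (46.2%, against 2.71% of all genes tested). There were 1 to 4 such calls in the fits without 1 library and 1 with the muscle score. The median was 1.32, with summed levels of 401 to 585 CPM in left IFN-alpha-pMC against 177 to 193 CPM in left pMC. Ly6c2 had 33.7, 38.9 and 41.9 CPM in left IFN-alpha-pMC, against 9.27, 9.47 and 6.71 CPM in left pMC and 7.33, 7.31 and 12.5 CPM in left controls (2.17 ± 0.29, adjusted p = 0.00215). Fcgr1, the high-affinity receptor for IgG, had 63, 48 and 47 CPM in left IFN-alpha-pMC and 19.9, 23.2 and 19.3 CPM in left pMC (1.34 ± 0.26, adjusted p = 0.0172). Ccr2, the receptor of Ccl2, had 30.8, 29.9 and 25.7 CPM in left IFN-alpha-pMC and 12.5, 12.4 and 11.2 CPM in left pMC (1.26 ± 0.32, adjusted p = 0.0414). In these 3 genes the lowest left IFN-alpha-pMC value was above the highest left pMC value.

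Of 18 macrophage genes 1 rose (5.56%, against 2.71% of all genes tested), the scavenger receptor gene Msr1 (1.42 ± 0.34), and the median was 0.10. Adgre1, which encodes F4/80, had 36.6, 59.5 and 53.8 CPM in left IFN-alpha-pMC and 36.4, 36.9 and 33.2 CPM in left pMC (adjusted p = 0.103), and Mrc1, the mannose receptor, had 20, 23.6 and 25.7 CPM in left IFN-alpha-pMC and 26.8, 24.6 and 20.3 CPM in left pMC (adjusted p = 0.898). The complement gene C1qa had 211, 212 and 202 CPM in left IFN-alpha-pMC and 102, 137 and 135 CPM in left pMC, and missed the threshold (adjusted p = 0.0685). Arg1, an arginine-degrading enzyme of suppressive myeloid cells, had 5.36, 1.57 and 5.21 CPM in left IFN-alpha-pMC and 0.558, 1.07 and 0.915 CPM in left pMC (2.26 ± 0.95, adjusted p = 0.13).

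Among dendritic cell genes, Xcr1, the chemokine receptor that names the cross-presenting subset, had 4.13, 5.31 and 5.87 CPM in left IFN-alpha-pMC and 1.76, 1.82 and 2.22 CPM in left pMC (1.40 ± 0.34, adjusted p = 0.0342). Of 13 genes of that subset, Xcr1 and Ifi205 rose (15.4%, against 2.71% of all genes tested). Clec9a, another of its markers, had 2.75, 3.29 and 3.64 CPM in left IFN-alpha-pMC and 1.67, 1.25 and 1.57 CPM in left pMC without passing (adjusted p = 0.076). Ifi205, an interferon-induced gene that is also used as a marker of that subset, rose by 1.78 ± 0.31. Il12b, a subunit of interleukin-12, was the only call among 15 genes of mature dendritic cells, at 0.995, 1.92 and 1.79 CPM in left IFN-alpha-pMC and 0.172, 0.439 and 0.523 CPM in left pMC (2.07 ± 0.52, adjusted p = 0.0389). None of 9 plasmacytoid dendritic cell genes and none of 4 tested neutrophil genes was called by edgeR, while 2 and 1 had an unadjusted p under 0.05 and DESeq2 called 2 and 1 higher. Hdc, the enzyme that makes histamine, rose by 1.70 ± 0.32 and was the only call among 5 mast cell and basophil genes, while Cpa3, which defines mast cells, was at 0.598 to 0.688 CPM in left IFN-alpha-pMC and at 0.215 to 0.653 CPM in left pMC. Of the 8 called myeloid genes with values here, Ly6c2 held with any 1 library left out, and it held with the muscle score. The other 7 had highest adjusted p of 0.0706 to 0.147: 7 were lost without left IFN-alpha-pMC 2 or left pMC 2, 6 without left pMC 1 or 3, 4 without left IFN-alpha-pMC 3 and 2 without left IFN-alpha-pMC 1. The 7 were not called with the muscle score, at a median log2 fold change of 1.91, against 1.42 without it. The length and GC correction lost Ccr2, Xcr1 and Il12b (adjusted p of 0.0514 to 0.077).

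**Figure D4:**
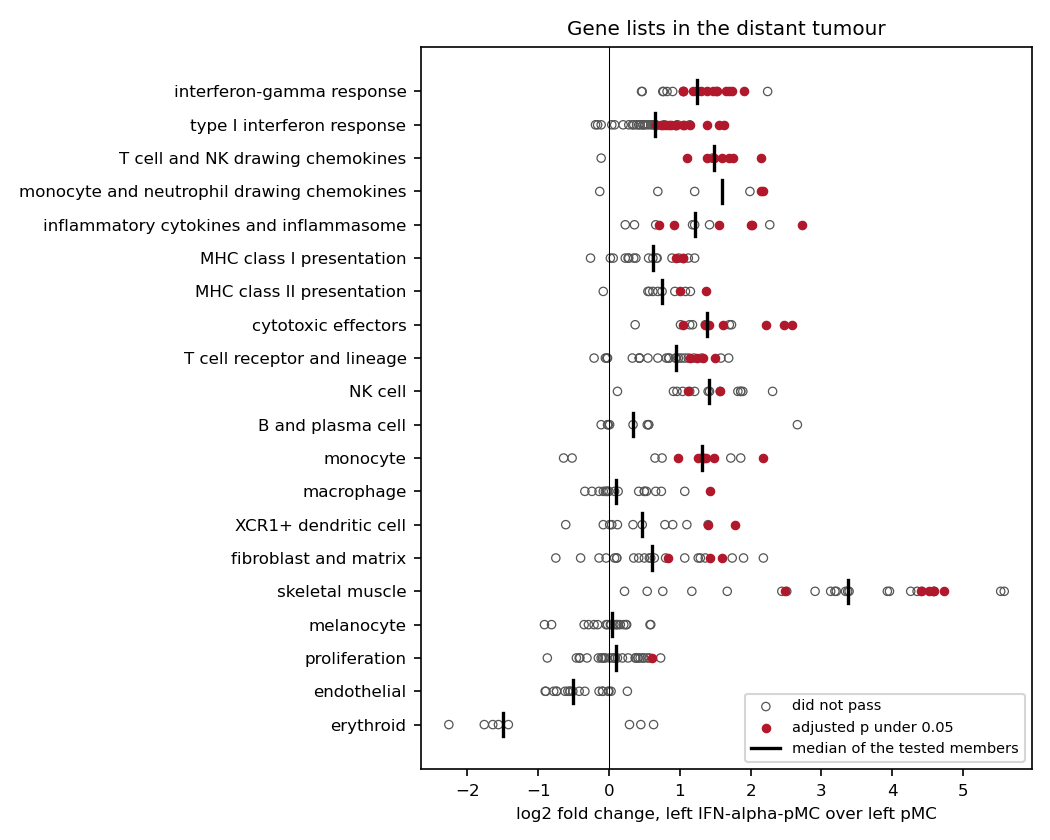
Each row is 1 gene list, each point 1 tested gene, the horizontal axis is the log2 fold change of left IFN-alpha-pMC over left pMC, filled points are genes called at an adjusted p under 0.05, and the vertical tick is the list's median. Medians ran from -1.49 for erythroid genes to 3.38 for skeletal muscle genes, and the melanocyte median was 0.05.

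No tumour cell marker passed the test. None of 20 melanocyte genes was called, with a median log2 fold change of 0.05, and 3 of the 20 had an unadjusted p under 0.05 in edgeR's quasi-likelihood test, while DESeq2 called 1 lower. Mitf, the master factor of the lineage, had 1530, 1820 and 1710 CPM in left IFN-alpha-pMC and 1740, 1440 and 1780 CPM in left pMC (0.03 ± 0.18). Dct, a pigment enzyme, had 18600, 12400 and 12200 CPM in left IFN-alpha-pMC and 12100, 13100 and 14800 CPM in left pMC (0.11 ± 0.26), with left IFN-alpha-pMC 1 above all others. Sox10, a neural crest factor, lay lower in each left IFN-alpha-pMC library, at 370, 421 and 498 CPM against 737, 843 and 679 CPM in left pMC, and missed the threshold (-0.81 ± 0.26, adjusted p = 0.0745). Of 28 proliferation genes 1 rose (3.57%, against 2.71% of all genes tested), and the median was 0.10. It was Bub1, a kinase of the spindle checkpoint (0.61 ± 0.16). Mki67 had 171, 110 and 120 CPM in left IFN-alpha-pMC and 270, 236 and 229 CPM in left pMC without passing (adjusted p = 0.167). Atf3, a stress factor, rose by 1.15 ± 0.26, the only call among 18 immediate early genes (5.56%).

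Endothelial genes had a negative median of -0.51 over 19 tested (-0.29 after the length and GC correction), none was called, and summed levels were 290 to 337 CPM in left IFN-alpha-pMC against 413 to 466 CPM in left pMC. By unadjusted p under 0.05 there were 6, and DESeq2 called none. In 8 of the 19 the left IFN-alpha-pMC libraries were all below the left pMC libraries, against 21.9% of all genes. Eng, a coreceptor for TGF-beta on endothelium, had 111, 126 and 148 CPM in left IFN-alpha-pMC and 182, 223 and 188 CPM in left pMC (-0.62 ± 0.23, adjusted p = 0.0934), whereas Pecam1, a junction protein of the same cells, had 18.7, 25.7 and 29.4 CPM in left IFN-alpha-pMC and 22.2, 23.1 and 28.5 CPM in left pMC (0.00 ± 0.21). Of 24 fibroblast and matrix genes 3 rose (12.5%, against 2.71% of all genes tested). Dcn, the proteoglycan decorin, had 20, 24.3 and 25 CPM in left IFN-alpha-pMC and 5.8, 7.28 and 9.98 CPM in left pMC (1.59 ± 0.40, adjusted p = 0.0396). Mmp13, a collagenase, rose by 1.42 ± 0.35, and Thy1, shared by fibroblasts and T cells, by 0.83 ± 0.22. Col1a1, the main collagen chain, had 90.7, 49.7 and 46.7 CPM in left IFN-alpha-pMC and 44.2, 43.3 and 88.7 CPM in left pMC, with overlapping groups (adjusted p = 0.932). Tgfbi, a matrix protein induced by TGF-beta, rose by 0.85 ± 0.21, the only call among 9 genes of that pathway. The 6 calls named in this and the preceding paragraph (Mmp13, Dcn, Thy1, Tgfbi, Bub1 and Atf3) were each lost in some fit without 1 library, with highest adjusted p of 0.113 to 0.189: 6 without left IFN-alpha-pMC 2 or 3 and without each left pMC library, and 3 without left IFN-alpha-pMC 1. None was called with the muscle score, where Dcn was at 0.90. The length and GC correction lost Mmp13, Dcn, Tgfbi and Bub1, with adjusted p of 0.0702 to 0.793 and Bub1 at 0.11.

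Erythroid genes had a median of -1.49 over 8 tested with none called, 5 at unadjusted p under 0.05 and 3 called lower by DESeq2. The adult globin gene Hbb-bs had 73.9, 23.8 and 36.9 CPM in left IFN-alpha-pMC and 72.6, 190 and 157 CPM in left pMC (adjusted p = 0.146), and left controls spread from 34 to 127 CPM. No gene was called by edgeR in the lists of hypoxia and glycolysis (20 tested, 6 at an unadjusted p under 0.05, 4 called by DESeq2), unfolded protein response (14, 6 and 2), cholesterol synthesis (15, 6 and 4), oxidative phosphorylation (21, 1 and 0), ribosomal proteins (29, 4 and 1), glucocorticoid targets (8, 1 and 1) or adipocytes (6, 0 and 0). Ribosomal protein genes summed to 44900, 21400 and 18500 CPM in left IFN-alpha-pMC 1, 2 and 3, against 19800 to 22500 CPM in left pMC, so left IFN-alpha-pMC 1 stood alone. Their median log2 fold change was 0.44, with all 29 positive, and without that library it was -0.01, with 14 of 29 positive.

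Skeletal muscle genes had the highest median log2 fold change of the lists with a tested member. All 28 tested members of that list had a positive log2 fold change, against 55% of all genes. Of the 28, 6 were called (21.4%, against 2.71% of all genes tested), and the median was 3.38. Their summed level was 1020 to 1890 CPM in left IFN-alpha-pMC, 98.1 to 249 CPM in left pMC and 97.2 to 529 CPM in left controls. Mylpf, a light chain of fast muscle myosin, had 393, 178 and 104 CPM in left IFN-alpha-pMC, against 1.37, 12.4 and 11.7 CPM in left pMC and 19.4, 1.07 and 3.9 CPM in left controls (4.73 ± 1.15, adjusted p = 0.0351). Casq1, the calcium buffer of the sarcoplasmic reticulum, had 17.9, 25.2 and 19.4 CPM in left IFN-alpha-pMC and 3.05, 4.89 and 3.31 CPM in left pMC (2.49 ± 0.45, adjusted p = 0.0105). Smyd1, a methyltransferase of muscle, had 8.49, 7.76 and 5.54 CPM in left IFN-alpha-pMC and 0.129, 0.502 and 0.523 CPM in left pMC (4.25 ± 0.68, adjusted p = 0.00553). In these 3 genes the groups did not overlap, and left pMC 1 was the lowest library of its group. Acta1, skeletal muscle actin, had 248, 356 and 203 CPM in left IFN-alpha-pMC and 0.429, 30.7 and 22.1 CPM in left pMC, with 164 CPM in left control 1, and did not pass (3.93 ± 1.5, adjusted p = 0.104).

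Of the 10 genes with the largest rise by the naming rule (Jph1, Yipf7, Csrp3, Myoz2, Smpx, Asb5, Tceal7, Klhl41, Xirp2 and Hfe2), most encode proteins of the muscle sarcomere or its membranes, such as Jph1, which holds the triad together, and Xirp2, which binds actin. Several rested on few counts in left pMC. Jph1 had 79 counts in left IFN-alpha-pMC and 0 in left pMC, which makes it at least 31.6-fold higher against 3 counts over the group, and Yipf7 had 60 in left IFN-alpha-pMC and 0 in left pMC, at least 24-fold higher. Myoz2, a calcineurin-binding protein of the Z disc, had 185 counts in left IFN-alpha-pMC and 2 in left pMC, a ratio of 111 (95% interval 30.3 to 923, counting error only), and Mettl21c, a muscle methyltransferase, had 75 in left IFN-alpha-pMC and 3 in left pMC, a ratio of 30 (9.88 to 149). Des, the muscle filament desmin, which pericytes also carry, rose by 3.79 ± 0.92. Of 16 called muscle genes, Smyd1 and Yipf7 held with any 1 library left out. The other 14 had highest adjusted p of 0.0557 to 0.156: 13 were lost without left IFN-alpha-pMC 2 or left pMC 1, 14 without left pMC 3, 12 without left pMC 2, 8 without left IFN-alpha-pMC 1 and 3 without left IFN-alpha-pMC 3. With the muscle score as a covariate none of the 16 was called, as that score is built from such genes. Asb5 was lost by the length and GC correction (adjusted p = 0.0551).

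In the fit over all 18 libraries fewer genes fell (169) than rose (403), but the 6 libraries alone gave 1588 lower and 950 higher. The 2 left groups did not overlap in 21.9% of all genes tested in the lower direction and in 21.3% in the higher. None of the 169 calls held in every fit without 1 library. Per1, a repressor of the circadian clock that also answers to stress hormones, had 34.3, 21.8 and 32.6 CPM in left IFN-alpha-pMC, against 119, 215 and 130 CPM in left pMC (log2 fold change -2.39 ± 0.42, adjusted p = 0.00989). Left controls ran from 40.1 to 152 CPM, across the range between both groups. It was the only one of 14 clock genes called. Msi1, an RNA-binding protein of neural progenitors, had 2.6, 2.11 and 3.15 CPM in left IFN-alpha-pMC and 9.06, 10.3 and 8.58 CPM in left pMC (-1.83 ± 0.36, adjusted p = 0.0174). Sema5b, a guidance molecule, had 0.612, 1.18 and 1.14 CPM in left IFN-alpha-pMC and 3.52, 3.89 and 3.31 CPM in left pMC (-1.84 ± 0.34, adjusted p = 0.0113), with 2.14 to 2.95 CPM in left controls. The rule for the largest falls admits only genes whose left IFN-alpha-pMC and left pMC libraries do not overlap, so that separation was set by the choice of genes. Left controls were not used by the rule, and both genes were lower in each left IFN-alpha-pMC library than in any left control library. Lama5, a laminin chain, Celsr2, a cadherin of planar polarity, Fbxl7, an F-box protein, Trim9, a ubiquitin ligase of neurons, Ttbk1, a tau kinase, Trarg1, a regulator of glucose transporter traffic, and C530008M17Rik completed the 10 largest falls, with log2 fold changes of -2.11 to -1.59. Without left IFN-alpha-pMC 2 or left pMC 2 all 10 were lost, without left pMC 1 or 3 Per1 alone was called, 6 were lost without left IFN-alpha-pMC 3, and 5 without left IFN-alpha-pMC 1. The highest adjusted p were 0.0585 to 0.176. All 10 were lost with the muscle score, with adjusted p of 0.0874 to 0.175 and a median log2 fold change of -1.89, against -1.83 without it. The length and GC correction lost Lama5, Celsr2 and Ttbk1 (adjusted p of 0.0599 to 0.0914).

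On the injected side the same contrast, right IFN-alpha-pMC over right pMC, called 1318 genes higher (8.88%) and 179 lower (1.21%), 1497 in all (10.1%). The difference between sides was tested as the right effect minus the left effect. It was called for 58 genes (0.391%), 56 with a positive difference (0.377%) and 2 with a negative one (0.0135%), and 10 of these 58 were also called in the distant tumour. The 2, named after their values were seen, were Gm15754 and Nsdhl, which fell on the right (-1.99 and -0.73) and were not called on the left (0.62 and 0.24). After the length and GC correction 10 genes were called. Whether a left and a right library of the same number share a mouse is not given in the labels.

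Median log2 fold changes of interferon genes were 0.65 left and 0.83 right for the type I list, and 1.24 left and 1.25 right for the interferon-gamma list. Of the 40 type I genes 1, Irf7, differed between sides. Irf7 had 104 ± 16.7 CPM in left IFN-alpha-pMC and 59.7 ± 6.08 CPM in left pMC, and 244 ± 3.31 CPM in right IFN-alpha-pMC and 57.9 ± 3.05 CPM in right pMC (SD, n = 3), a difference of 1.28 ± 0.25 between the log2 effects (adjusted p = 0.0377). For Gbp2 the difference between the log2 effects was 0.08 ± 0.30 (adjusted p = 0.9), for Zbp1 0.09 ± 0.28 (adjusted p = 0.88) and for Cxcl9 -0.27 ± 0.33 (adjusted p = 0.69). A missed threshold does not show that these effects were equal.

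Of 27 T cell genes 5 differed between sides and of 14 cytotoxic genes 2 did, all with the larger effect on the injected side. Medians were 0.94 left and 2.67 right for T cell genes and 1.39 left and 3.06 right for cytotoxic genes. Gzma had 14.5 ± 7.22 CPM in left IFN-alpha-pMC and 3.12 ± 0.62 CPM in left pMC, and 158 ± 68.6 CPM in right IFN-alpha-pMC and 3.71 ± 1.01 CPM in right pMC, a difference of 3.19 ± 0.63 (adjusted p = 0.0417). Prf1 differed by 2.79 ± 0.49 (adjusted p = 0.0245) and Cd3g by 1.94 ± 0.39 (adjusted p = 0.0429). Gzmb differed by 2.17 ± 0.55 without passing (adjusted p = 0.108). Ly6c2 had 38.2 ± 4.18 CPM in left IFN-alpha-pMC and 8.48 ± 1.54 CPM in left pMC, and 177 ± 9.6 CPM in right IFN-alpha-pMC and 9.02 ± 0.625 CPM in right pMC (difference 2.12 ± 0.40, adjusted p = 0.0327). Ccl11 differed by 2.48 ± 0.42 (adjusted p = 0.0241).

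The smallest p of the side difference belonged to Adam8, a metalloprotease of leukocytes, at 9.25 ± 3.04 CPM in left IFN-alpha-pMC and 3.9 ± 0.928 CPM in left pMC, and 40.6 ± 3.65 CPM in right IFN-alpha-pMC and 3.47 ± 0.178 CPM in right pMC (2.30 ± 0.34, adjusted p = 0.0228). Muscle genes had medians of 3.38 left and 3.91 right. No gene was called for the side difference when any one of left IFN-alpha-pMC 1 or 2, left pMC 2 or 3, right IFN-alpha-pMC 2 or 3 or right pMC 1 or 2 was left out, and without left IFN-alpha-pMC 3, left pMC 1, right IFN-alpha-pMC 1 or right pMC 3 the counts were 36, 65, 85 and 56. At an unadjusted p under 0.05 those fits with no call held 727 to 1170 genes with a positive difference and 330 to 951 with a negative one.

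**Figure D5:**
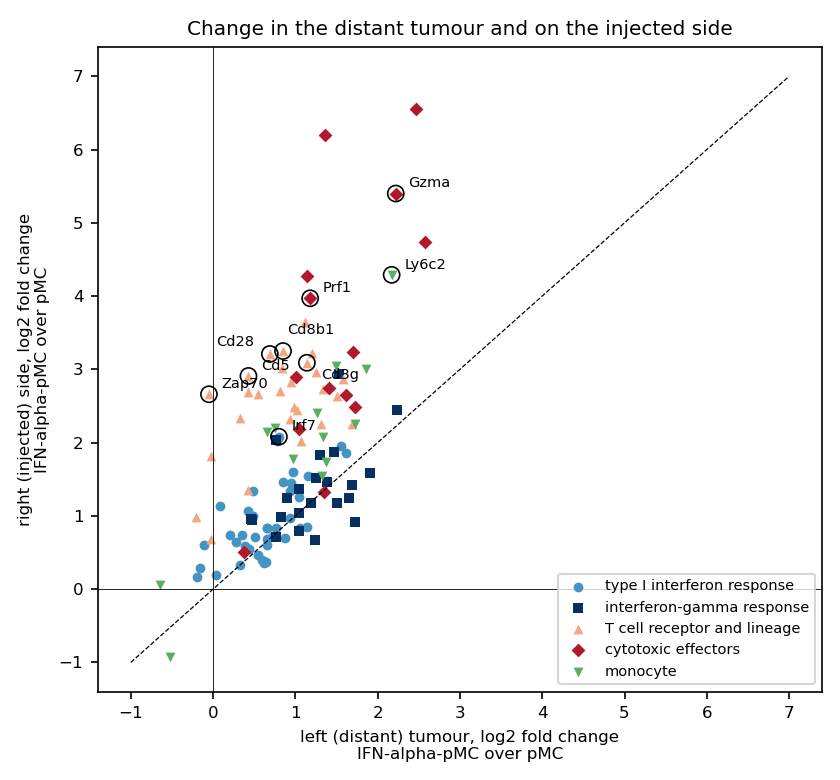
Each point is 1 gene of the 5 lists named in the legend, the horizontal axis is the log2 fold change of left IFN-alpha-pMC over left pMC, the vertical axis that of right IFN-alpha-pMC over right pMC, the dashed line marks equal change, and circles mark genes whose effect differed between sides at an adjusted p under 0.05. Cytotoxic genes lie mostly above the line, with medians of 1.39 left and 3.06 right, and interferon-gamma response genes lie around it, with medians of 1.24 and 1.25.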

How the data were processed

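RNA from 18 MO4 tumour samples was sequenced from stranded mRNA libraries, per the labels' protocols, and 3 left IFN-alpha-pMC libraries were compared with 3 left pMC libraries. The deposited values are raw counts by Ensembl gene ID in a separate file for each library, each listing 37620 gene IDs and 5 summary entries that were left out of library totals (in no feature, 4.04 to 12.21% of read pairs over all libraries). HTSeq 0.10.0, HISAT2 2.1.0, Trimmomatic 0.36, DESeq2 1.20.0, CASAVA 1.8.2, bcl2fastq and FastQC were used by the authors, per the submitters' processing notes, which also name build mm9. A gene and its antisense partner may not have been told apart, because the counter's strand setting is not given in the sources used here. Pairs aligned in several places are a summary entry (18.38 to 24.34% over all libraries) and not in the gene counts, which can lower or split families of near-identical genes. Symbols came from GENCODE M21 for 32897 IDs.

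Counts were fitted with edgeR 4.0.16 (R 4.3.3): genes kept by filterByExpr at its defaults (14849), trimmed-mean scaling, 1 mean for each of the 6 groups over all 18 libraries (12 residual degrees of freedom), two-sided quasi-likelihood F tests and Benjamini-Hochberg adjustment over all genes tested. The shared spread was a biological coefficient of variation of 23.7%. The SE was taken as the absolute log2 fold change over the root of its F statistic. The side difference was the right effect minus the left effect in the same model. The depth of 14346091 to 23430259 counts per library puts the limit that a count of 0 allows (3 counts) at 0.128 to 0.209 CPM. Such limits cover counting error only, as without molecular identifiers 1 molecule can give several read pairs. Tested on simulated data with changed genes, the fit of the left comparison (14621 genes) recovered 45% of 2-fold and 94% of 4-fold changes. Of its 152 calls, 13 were false. Apart from depth and the changed genes, all simulated libraries shared 1 mean level per gene. The muscle, GC and single-library differences of the real data were therefore not simulated.

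Genes were named by rule: the 10 largest rises and the 10 largest falls among called genes with a symbol, a mean of at least 1 CPM in the higher group and groups that did not overlap, the 3 members of each list with the smallest p and its set anchor genes, and the 5 genes with the smallest p of the side difference. A few genes that the rule names are not reported here. The members and the 48 gene lists were chosen with earlier results of these data known. Promoter sequences are from RefSeq (GRCm38.p6) and were matched by symbol. Alternatives were other size factors, DESeq2 1.42.0, no filter on low counts, the 6 or 12 compared libraries alone, a replicate block, the muscle score as a covariate, a length and GC correction by transcript, each library left out and, chosen after seeing the data, the 3 libraries that stood apart left out together (left IFN-alpha-pMC 1, right IFN-alpha-pMC 3 and right control 3).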

Additional observations from a re-analysis of the deposited data

Results flagged for a closer look

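Among the genes with values in the report or listed by its naming rule, 16 had a larger effect of IFN-alpha-pMC over pMC on the right, injected side. They passed edgeR's quasi-likelihood test of the difference itself. Gm15754 and Nsdhl, given above, passed it in the other direction, at -2.61 and -0.98 (adjusted p = 0.0429 for both). For the 16, the differences, right effect minus left effect in log2 units, were 2.30 for Adam8, 1.83 for Rftn1, 1.96 for Fam107b, 2.12 for B4galnt1, 1.52 for Arhgap45, 1.84 for Thy1 and 1.54 for Irf5, all with an adjusted p of 0.0228. They were 2.48 for Ccl11, 2.79 for Prf1, 1.64 for Tgfbi, 2.12 for Ly6c2, 1.42 for Cd68, 1.28 for Irf7, 2.39 for Il2rb, 3.19 for Gzma and 1.94 for Cd3g, with adjusted p of 0.0241 to 0.0429. In the distant tumour Il2rb, a receptor chain for interleukin-2 and interleukin-15, had 9.56, 13.1 and 14 CPM in left IFN-alpha-pMC and 8.42, 14.9 and 10.8 CPM in left pMC, so these groups overlapped, while it averaged 59.9 ± 17.3 CPM in right IFN-alpha-pMC and 10.5 ± 2.29 CPM in right pMC (SD, n = 3). Cd68, a macrophage lysosomal protein, had 45.7, 67.8 and 79.4 CPM in left IFN-alpha-pMC and 36.3, 50.1 and 47.7 CPM in left pMC, and it averaged 162 ± 13 CPM in right IFN-alpha-pMC and 42.3 ± 4.43 CPM in right pMC.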

How the results depend on the processing

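The 572 calls of the distant tumour (403 higher, 169 lower) became 2059 with DESeq2 (1253 and 806), 2538 with the 6 libraries alone (950 and 1588), 86 given the muscle score as a covariate (82 and 4), 359 after the length and GC correction (273 and 86) and 4142 without the 3 libraries that stood apart (1900 and 2242), a setting chosen after seeing the data. DESeq2 size factors in edgeR gave 623 and no filter on low counts 750, with 287 lower. With the replicate block the count was 350 (288 and 62). Same-numbered libraries of left IFN-alpha-pMC and left pMC had correlations of their deviations from the group means of -0.14, -0.17 and 0.00, which gives no sign of pairing between these groups. With 1 library left out the counts ran from 33 to 414 in all, from 30 to 305 higher and from 0 to 109 lower, and the fit with 0 lower, without left IFN-alpha-pMC 2, held 1517 lower genes at an unadjusted p under 0.05. The genes called also changed: 265 of the 414 without left IFN-alpha-pMC 1 and 287 of the 359 after the length and GC correction were among the 572. Why single libraries or settings move these counts was not tested.

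The 58 side differences (56 positive and 2 negative, right effect minus left effect) became 282 with DESeq2 (220 and 62), 127 with the replicate block (125 and 2), 10 after the length and GC correction (10 and 0) and 42, 56, 44, 50 and 48 with DESeq2 size factors, no filter, the 12 libraries alone, the muscle score and without the 3 libraries. Negative differences numbered 1 with no filter, 0 with the 12 libraries alone and 1 with the muscle score. Same-numbered left and right libraries had correlations of their deviations of 0.30, -0.25 and 0.44 for IFN-alpha-pMC, where other numbers gave -0.46 to 0.39. For pMC they were 0.10, 0.01 and 0.13, against -0.15 to 0.05. Whether the sides are paired cannot be told from these values. At an unadjusted p under 0.05, 870 genes had a negative difference in the length and GC fit of edgeR and 969 in its fit of the 12 libraries. With 1 library left out the counts ran from 0 to 85 in all, from 0 to 81 positive and from 0 to 4 negative. The total was 0 without left IFN-alpha-pMC 1 or 2, left pMC 2 or 3, right IFN-alpha-pMC 2 or 3, or right pMC 1 or 2, where edgeR still held 727 to 1170 genes with a positive difference at an unadjusted p under 0.05.

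The named genes counted here include the 25 with the smallest p, picked from the same data. The shares kept are therefore not those of a set chosen beforehand. Of the 101 named genes called in the distant tumour, 99 were called with DESeq2 size factors, 100 with DESeq2, 99 with no filter, 99 with the 6 libraries alone, 90 with the replicate block, 79 after the length and GC correction, 31 with the muscle score and 29 to 74 with 1 library left out. All these settings kept 18 of them. Cox4i1, a subunit of cytochrome oxidase that was not called (0.12, adjusted p = 0.866), changed sign to -0.62 (adjusted p = 0.0402) without the 3 libraries.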
